A study of Homo sapiens with 12 samples.

Results

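The genes described here are 32 genes of homologous recombination and of the Fanconi anemia pathway, matched on the gene name in the deposited tables. The list was chosen with earlier results of these data known. All 32 were found among the 29657 genes listed for SCC15 and among the 31055 listed for SCC25, and all 32 reached a mean of 10 normalized counts in both. RNA-seq was made from SCC15 and SCC25, established lines of oral squamous cell carcinoma with the genotype label WT, after 24 h with ACGs or with the solvent DMSO. ACGs are annonaceous acetogenins, plant polyketides that block respiratory Complex I, and the compound that the study used is squamocin. Each of the 4 groups has 3 libraries, and the labels do not say whether these came from separate cultures, so a p-value measures only the spread between these libraries.

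Homologous recombination copies the sister chromatid to mend a double-strand break: the broken end is first trimmed to a single strand, BRCA1, PALB2 and BRCA2 then prepare it for pairing with the intact copy, and helicases resolve the joined molecules. The Fanconi pathway handles links between the strands of DNA, with a core ligase that adds ubiquitin to the FANCD2-FANCI pair and then hands the lesion to recombination. Both work mainly in S and G2 phase, and germline loss of many of these genes gives cancer predisposition or bone marrow failure, with squamous carcinoma of the mouth a known risk in Fanconi anemia.

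The libraries held 16665563 to 22748845 reads assigned to genes, and the normalized totals were higher with ACGs than with DMSO in both lines. ACGs replicate 3 of SCC15 stood apart from the other replicates of its group, with a chi-square per degree of freedom of 71.6 and 63.6 against them. All other replicate pairs lay between 1.72 and 11.0. The counts of repair genes called in SCC15, and the values of some genes there, are therefore also given without that library. Of the 10 squamous epithelial markers, KRT14, KRT17 and SFN were present in both lines, while KRT5, TP63 and EPCAM did not exceed 22.7 normalized counts in any SCC15 library and lay between 2918 and 7030 in SCC25. Markers of other cell types were low but not all absent. The 6 fibroblast markers summed to 708 to 784 normalized counts with DMSO and 482 to 486 with ACGs in SCC15, and to 766 to 809.6 and 1073 to 1228 in SCC25. The leukocyte markers, of which PTPRC did not exceed 3.95 in SCC15, summed to 499 to 542 and 319 to 503 in SCC15 and to 397 to 482 and 82.6 to 109.9 in SCC25. Most of this was CD14 in SCC15 and in SCC25 with DMSO, while in SCC25 with ACGs CD14 was at 3.33 to 7.28 and most was ITGAM, at 63.6 to 78.8. The endothelial markers summed to 158 to 178 and 66.1 to 77.1 in SCC15 and to 233 to 296 and 19.8 to 37.7 in SCC25. Their part in the results was not tested.

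Promoter sequences are shown for BRCA1, PALB2 and XRCC2, which fell by over 1 on the log2 scale in both lines (RAD50 did so too but shares most of its exonic bases with another gene), and for EXO1, which was added after its values were seen because it holds the same word as XRCC2. Each is the 250 bases before the start of the gene in RefSeq (GRCh38.p14), read 5′ to 3′ on the minus strand for BRCA1, PALB2 and XRCC2 and on the plus strand for EXO1. BRCA1 lies at chr17:43125365-43125614, PALB2 at chr16:23641311-23641560, XRCC2 at chr7:152676142-152676391 and EXO1 at chr1:241847954-241848203. Capitals mark CCAAT on either strand and TGACGTCA, the word of cyclic AMP response elements.
BRCA1: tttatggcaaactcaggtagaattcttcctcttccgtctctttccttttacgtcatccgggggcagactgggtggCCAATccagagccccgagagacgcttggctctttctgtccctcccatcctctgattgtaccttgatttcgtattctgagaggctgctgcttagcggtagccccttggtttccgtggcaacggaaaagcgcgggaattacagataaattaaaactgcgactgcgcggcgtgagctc
PALB2: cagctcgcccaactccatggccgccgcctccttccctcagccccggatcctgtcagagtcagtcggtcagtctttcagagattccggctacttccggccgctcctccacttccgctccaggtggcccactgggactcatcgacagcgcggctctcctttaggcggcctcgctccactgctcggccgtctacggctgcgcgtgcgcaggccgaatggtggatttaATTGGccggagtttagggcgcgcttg
XRCC2: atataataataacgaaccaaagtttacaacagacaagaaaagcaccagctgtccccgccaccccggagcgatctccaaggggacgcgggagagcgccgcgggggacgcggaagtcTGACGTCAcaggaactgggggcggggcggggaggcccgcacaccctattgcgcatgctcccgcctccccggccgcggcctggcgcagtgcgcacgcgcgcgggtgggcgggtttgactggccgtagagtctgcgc
EXO1: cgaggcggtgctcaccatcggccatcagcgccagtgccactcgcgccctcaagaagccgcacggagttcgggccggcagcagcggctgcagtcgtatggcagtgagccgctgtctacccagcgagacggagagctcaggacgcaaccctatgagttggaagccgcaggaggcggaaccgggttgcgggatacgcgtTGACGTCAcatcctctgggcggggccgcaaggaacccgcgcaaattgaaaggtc

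BRCA1 holds CCAAT 175 bases before its start, and PALB2 holds it on the opposite strand 26 bases before its start. XRCC2 and EXO1 hold TGACGTCA, which reads the same on both strands, 135 and 54 bases before their starts. RefSeq windows matched 29 of the 32 genes, with 39 windows in all, and those of NBN, RAD54B and FANCI were not matched. CCAAT stood in 17 of these windows (43.6%) against 32% of all 35116 windows of the same length, and TGACGTCA in 3 (7.69%) against 1.65%. The E2F words TTTCCCGC, TTTCGCGC, TTTGCCGC and TTTGGCGC, searched on both strands, stood in 2 windows (5.13%), those of FANCA and FANCC, against 2.79% of all windows. GGGCGG, the word of the GC box, stood on either strand in 25 windows (64.1%) against 42.6% of all. TGACGTCA also stands before RAD51C, whose sequence is not shown. CCAAT stands before 13 of the 29 genes: ATM, BLM, BRCA1, BRIP1, CHEK1, CHEK2, FANCA, FANCF, FANCM, PALB2, RAD51AP1, RAD54L and XRCC3. Whether any of these words had a part in the values was not tested.

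In both lines more of the repair genes fell with ACGs than rose. In SCC15 18 of the 32 were lower (30.0% of all 15902 genes tested were called lower) and 3 were higher (30.9% of all were called higher), and 11 did not pass the test. In SCC25 17 were lower (38.5% of all 16539 genes tested) and 4 were higher (38.3%), and 11 did not pass. A call is an adjusted p under 0.05 in limma on log2(normalized count + 1), with Benjamini-Hochberg adjustment over all genes tested in the line, and fold changes are on that scale. The median log2 fold change of the 32 was -0.42 in SCC15, beside 0.012 over all genes tested, and -0.29 in SCC25, beside -0.015. In RNA from whole cultures, fewer cells that express a gene and less RNA per cell cannot be told apart.

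Without ACGs replicate 3, 20 of the 32 were lower in SCC15 (37.6% of all) and 6 higher (38.0%), with a median of -0.39. When every library was instead scaled to the same total, the median of all genes became -0.48 in SCC15 and -0.22 in SCC25. Under it 26 repair genes were lower in SCC15 (50.5% of all) and 0 higher (14.8%), and in SCC25 23 were lower (47.4%) and 3 higher (30.4%). The rises named below therefore hold relative to the median gene, and the SCC15 rises of NBN, FANCA and FANCG changed sign under equal totals, while RAD51AP1 in SCC25 kept its sign and lost its call.

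Lower in both lines were 13 of the 32 genes (18.6% of the 14454 genes tested in both), 1 was higher in both (22.1%), and 2 had opposite calls (10.1%). The 13 are RAD50, EXO1, BRCA1, BRIP1, PALB2, RAD51D, XRCC2, FANCF, FANCL, FANCD2, FANCI, ATR and PARP1, and the gene higher in both is NBN. The groups did not overlap for 25 genes in SCC15 (70.6% of all genes tested) and for 23 in SCC25 (79.0%).

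BRCA1 and its partners were all 5 lower in SCC15 (30.0% of all genes). In SCC25 3 of them were lower (38.5% of all genes) and 1 was higher (38.3%). BRCA1, the ubiquitin ligase that opens the way for recombination, had 753, 731 and 769 normalized counts in the SCC15 DMSO libraries and 319.9, 315 and 243 with ACGs. In SCC25 it had 1063, 1123 and 1135 with DMSO and 487, 521 and 403 with ACGs. Every ACGs library lay below every DMSO library of its line, with a log2 fold change of -1.37 ± 0.13 (SE, adjusted p = 0.000126) in SCC15 and -1.24 ± 0.09 (SE, adjusted p = 3.48e-08) in SCC25.

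PALB2, which bridges BRCA1 and BRCA2, had 362, 406 and 388 normalized counts with DMSO and 165, 193 and 175 with ACGs in SCC15. In SCC25 the values were 516, 508 and 539 with DMSO and 241, 220.5 and 233 with ACGs. The groups did not overlap in either line, and the log2 fold changes were -1.11 (adjusted p = 0.00017) in SCC15 and -1.17 (adjusted p = 2.23e-08) in SCC25. The test of the difference between the lines gave -0.05 ± 0.13 (SE, adjusted p = 0.752).

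BRCA2, which acts on single-stranded DNA, moved far more in SCC15. Its normalized counts there were 591, 640.4 and 586 with DMSO and 279, 243 and 169 with ACGs, and in SCC25 652, 684 and 686 with DMSO against 614, 649 and 521 with ACGs. ACGs replicate 3 was the lowest library in both lines, and the groups did not overlap in either. The log2 fold change was -1.42 (adjusted p = 0.00052) in SCC15 and -0.19 (adjusted p = 0.0501) in SCC25, which is at the threshold and passed it under several alternatives. The lines differed by 1.23 ± 0.21 (SE, adjusted p = 0.000331).

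BARD1, the obligate partner of BRCA1 in its ligase, went in opposite directions. Its normalized counts were 674, 677 and 729.8 with DMSO and 529, 561 and 498 with ACGs in SCC15, and 589, 614 and 588 with DMSO against 909, 886 and 820.4 with ACGs in SCC25. The ACGs libraries were all below DMSO in SCC15 and all above it in SCC25, with log2 fold changes of -0.39 (adjusted p = 0.00737) and 0.54 (adjusted p = 3.85e-06), and the difference was 0.93 ± 0.11 (SE, adjusted p = 1.34e-05). BRIP1, a helicase that binds BRCA1, fell by 1.42 on the log2 scale in SCC15 and less in SCC25, where it fell by 0.64, a difference of 0.78 ± 0.19 (SE, adjusted p = 0.00434).

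Among the genes of the BCDX2 and CX3 complexes, which act in strand pairing, XRCC2 and RAD51D fell in both lines. RAD51B, a member of BCDX2 outside the 32, was higher in both, at 0.41 (adjusted p = 0.0461) in SCC15 and 0.42 (adjusted p = 0.00572) in SCC25. XRCC2 had 466, 472 and 498 normalized counts with DMSO and 105, 106 and 90.8 with ACGs in SCC15, and 589.9, 615 and 639 with DMSO against 316, 315 and 223 with ACGs in SCC25. The groups lay far apart in both lines, and the log2 fold change of -2.24 ± 0.11 (SE, adjusted p = 1.33e-05) in SCC15 was the lowest of the 32 there, against -1.12 ± 0.12 (SE, adjusted p = 2.01e-06) in SCC25. The lines differed by 1.12 ± 0.18 (SE, adjusted p = 0.000227).

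RAD51D, which pairs with XRCC2 in the first of these, had log2 fold changes of -0.73 (adjusted p = 0.000794) in SCC15 and -0.52 (adjusted p = 0.000537) in SCC25. XRCC3 had log2 fold changes of -0.11 (adjusted p = 0.328) in SCC15 and -0.23 (adjusted p = 0.00704) in SCC25, and 76.7% of its exonic bases in GENCODE v44 are shared with another gene. RAD51C, a member of both complexes, did not pass in either line, with -0.13 (adjusted p = 0.611) in SCC15 and 0.16 (adjusted p = 0.13) in SCC25. In SCC15 its ACGs libraries had 286, 242 and 447 normalized counts, with replicate 3 above and the other 2 below the DMSO libraries, and without replicate 3 it was lower (-0.39, adjusted p = 0.0012).

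Of the genes of strand exchange, RAD51AP1, which helps capture the second duplex, was higher in SCC25 at 0.32 (adjusted p = 0.00509) and had 0.21 (adjusted p = 0.0852) in SCC15. RAD54L, a motor protein that remodels the joint, fell by 0.68 in SCC25 and had -0.17 (adjusted p = 0.244) in SCC15. Its homolog RAD54B fell by 0.81 in SCC15, with normalized counts of 89.6, 107 and 104 with DMSO and 60.3, 66.1 and 44.8 with ACGs, and had -0.01 (adjusted p = 0.955) in SCC25. These 2 genes differed between the lines in opposite directions, by -0.51 ± 0.14 (SE, adjusted p = 0.00979) for RAD54L and 0.80 ± 0.26 (SE, adjusted p = 0.0218) for RAD54B, and 66% of the exonic bases of RAD54B are shared with another gene. Under equal library totals the difference of RAD54L was -0.22 (adjusted p = 0.32).

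At the broken end, RAD50 and NBN, which form 1 complex with MRE11, moved apart in both lines. RAD50 had 198, 164 and 194 normalized counts with DMSO and 105, 107 and 44.8 with ACGs in SCC15, and 197, 205 and 218 with DMSO against 50.8, 75.9 and 48.8 with ACGs in SCC25. All ACGs libraries were below DMSO, and ACGs replicate 3 of SCC15 was far below the other 2. The log2 fold changes were -1.20 (adjusted p = 0.0148) in SCC15, -0.79 without that library, and -1.83 (adjusted p = 5.82e-07) in SCC25, and in SCC15 the adjusted p was 0.0534 without DMSO replicate 1 and 0.0506 without DMSO replicate 3. In GENCODE v44 76.9% of the exonic bases of RAD50 are shared with another gene, so its counts are uncertain. XRCC3 and RAD54B are the other genes of the 32 above 50%, and RAD54L and FANCA follow at 19.9% and 19.6%.

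NBN, the subunit that recruits ATM, had 694, 688 and 671 normalized counts with DMSO and 821, 879 and 928 with ACGs in SCC15, and 1378, 1362 and 1289.7 with DMSO against 2656, 2763 and 2541 with ACGs in SCC25. Every ACGs library was above every DMSO library, with log2 fold changes of 0.35 (adjusted p = 0.00873) and 0.98 (adjusted p = 1.85e-09), and the SCC15 value was -0.14 under equal library totals. The rise was larger in SCC25, by 0.63 ± 0.10 (SE, adjusted p = 0.000141). MRE11, their partner outside the 32, had log2 fold changes of -0.28 in SCC15 and -0.20 in SCC25.

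RBBP8 (CtIP), the cofactor that starts resection, had 2105, 2173 and 2093 normalized counts with DMSO and 1080.3, 1195 and 1024 with ACGs in SCC25, a log2 fold change of -0.95 (adjusted p = 1.21e-08). In SCC15 the groups overlapped and the value was 0.14 (adjusted p = 0.242), and the lines differed by -1.09 ± 0.12 (SE, adjusted p = 8.18e-06). EXO1, the nuclease of long-range resection, had log2 fold changes of -0.72 (adjusted p = 0.0014) in SCC15 and -0.58 (adjusted p = 3.39e-05) in SCC25. BLM, a helicase that aids resection and dissolves joint molecules, fell by 0.58 in SCC15 and had -0.21 (adjusted p = 0.18) in SCC25, where ACGs replicate 3 was lowest at 235 normalized counts and the groups overlapped.

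**Figure D1:**
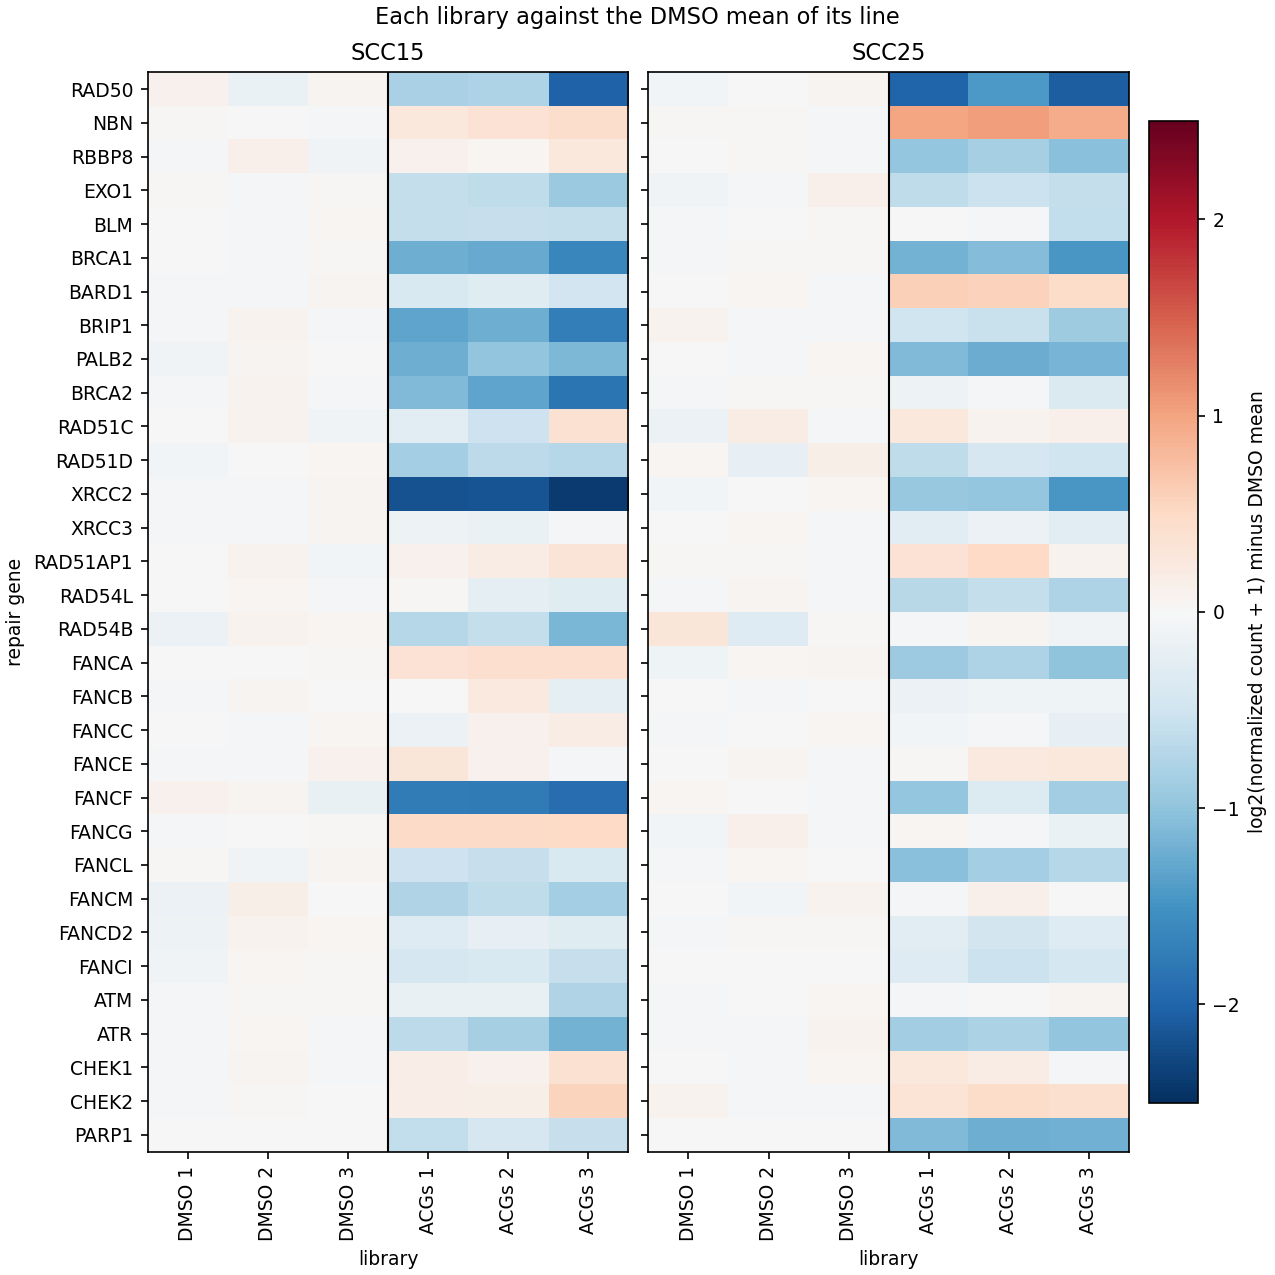
Log2(normalized count + 1) of each library minus the mean of the DMSO libraries of its line, for the 32 repair genes (rows) in the 12 libraries (columns), blue for lower and red for higher. ACGs replicate 3 of SCC15 is lower than replicates 1 and 2 for RAD50, BRCA2 and ATM and higher for RAD51C and CHEK2.

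The 8 measured genes of the Fanconi core complex counted 3 lower (30.0% of all genes) and 2 higher (30.9%) in SCC15, and 3 lower (38.5%) and 0 higher (38.3%) in SCC25, with medians of 0.03 and -0.11. FANCA, a scaffold subunit, had 1355, 1346 and 1384 normalized counts with DMSO and 1761, 1810.1 and 1823 with ACGs in SCC15, and 742, 830.2 and 836 with DMSO against 427, 469 and 401 with ACGs in SCC25. The ACGs libraries were all above DMSO in SCC15 and all below it in SCC25. The log2 fold changes were 0.40 ± 0.07 (SE, adjusted p = 0.00265) and -0.89 ± 0.08 (SE, adjusted p = 2.92e-07), with -0.10 in SCC15 under equal library totals, and the difference of -1.29 ± 0.11 (SE, adjusted p = 9.57e-07) was the largest in size among the 32. FANCG, which binds FANCA, rose by 0.49 in SCC15, where equal totals gave -0.011, and had -0.05 (adjusted p = 0.575) in SCC25.

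FANCF, an adaptor encoded by a gene without introns, had 78.5, 75.9 and 63.7 normalized counts with DMSO and 20.9, 20.5 and 18.7 with ACGs in SCC15, and 194, 189 and 181 with DMSO against 95.3, 149 and 102 with ACGs in SCC25. The groups did not overlap in either line, and the log2 fold changes were -1.81 (adjusted p = 0.000229) and -0.73 (adjusted p = 0.000984), a difference of 1.08 ± 0.25 (SE, adjusted p = 0.00272). FANCL, the catalytic ligase subunit, fell by 0.49 in SCC15 and 0.87 in SCC25. FANCM, the translocase that anchors the complex, fell by 0.74 in SCC15 and had 0.03 (adjusted p = 0.747) in SCC25. FANCB, FANCC and FANCE did not pass in either line, with log2 fold changes from 0.00 to 0.12 in SCC15 and from -0.12 to 0.17 in SCC25.

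The substrates of the ligase fell together and by little. FANCI had 2063, 2267 and 2209 normalized counts with DMSO and 1629, 1678 and 1462 with ACGs in SCC15, and 2025, 2030.2 and 2057 with DMSO against 1624, 1406 and 1511 with ACGs in SCC25, without overlap. Its log2 fold changes were -0.46 (adjusted p = 0.00362) and -0.43 (adjusted p = 1.22e-05). FANCD2 had -0.28 (adjusted p = 0.032) in SCC15, where it no longer passed without ACGs replicate 1 (adjusted p = 0.0785), DMSO replicate 2 (0.129) or DMSO replicate 3 (0.126), and -0.36 (adjusted p = 0.00143) in SCC25.

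Of the damage kinases, ATR, the sensor of single-stranded DNA, was the one that fell in both lines. It had 1450.3, 1531 and 1433 normalized counts with DMSO and 931, 824 and 645 with ACGs in SCC15, and 953, 944 and 1043 with DMSO against 533, 566 and 493 with ACGs in SCC25. The groups did not overlap, and the log2 fold changes were -0.89 (adjusted p = 0.00117) and -0.88 (adjusted p = 1.15e-07). ATM, the sensor of double-strand breaks, did not pass, with -0.37 (adjusted p = 0.0694) in SCC15, where replicate 3 was lowest, and 0.01 (adjusted p = 0.864) in SCC25.

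CHEK1, the kinase downstream of ATR, had 0.22 (adjusted p = 0.0895) in SCC15 and 0.13 (adjusted p = 0.134) in SCC25. CHEK2, the kinase downstream of ATM, was higher in SCC25 at 0.41 (adjusted p = 8.80e-05) and had 0.29 (adjusted p = 0.0666) in SCC15. Without ACGs replicate 3, ATM was lower (-0.19) and RAD51AP1, CHEK1 and CHEK2 were higher (0.15, 0.14 and 0.16) in SCC15, while with all libraries scaled to equal totals these 3 were at -0.29, -0.28 and -0.21. PARP1, which senses nicks and is the target of PARP inhibitors, had 4327, 4397 and 4301 normalized counts with DMSO and 2819, 3257 and 2904 with ACGs in SCC15, and 6053, 6007 and 6144 with DMSO against 2827, 2617 and 2647 with ACGs in SCC25. It fell in both lines, by 0.54 and 1.17, and further in SCC25, by -0.63 ± 0.10 (SE, adjusted p = 0.000135).

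The response differed between the lines for 14 of the 32 genes (52.2% of all 14454 genes tested in both), with 8 above in SCC25 (26.0% of all) and 6 below (26.1%). Per kilobase of exon in GENCODE v44, which may not be the annotation the authors counted on, CHEK2, RAD51AP1 and PARP1 had the highest values with DMSO in SCC15, at 358, 341 and 236 normalized counts per kilobase. In SCC25 the highest were RBBP8, PARP1 and RAD51AP1, at 418, 329.8 and 266. FANCL was lowest in SCC15 at 14.2 and FANCB lowest in SCC25 at 13.8. The length merges the exons of all annotated transcripts, 38.0 kb for FANCL, so a gene with much annotated exon gets a low value. These values therefore give no order of expression among the 32. Across the 32 genes, Spearman's rho between gene span and log2 fold change was -0.19 in SCC15 and -0.15 in SCC25, beside -0.19 and -0.03 over all genes tested, and genes are not independent replicates.

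Ratios of partner genes within a library cancel the scaling of that library, apart from the pseudocount. Of 20 comparisons, 10 pairs in each line, 17 reached the smallest p that 3 against 3 libraries allow in the exact two-sided permutation test, 0.1, with an adjusted p of 0.118, so none could pass 0.05. How often other gene pairs reach this p was not tested. Among single genes, the groups did not overlap for 70.6% of all tested in SCC15 and 79.0% in SCC25. The log2 ratio of BRCA1 to BARD1 was 0.16, 0.11 and 0.08 with DMSO and -0.72, -0.83 and -1.03 with ACGs in SCC15. In SCC25 it was 0.85, 0.87 and 0.95 with DMSO and -0.90, -0.76 and -1.02 with ACGs. The ratio was lower in every ACGs library than in every DMSO library, a shift of -0.98 and -1.79. These are ratios of counts not divided by gene length, so their sign gives no order of the levels.

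The ratio of RAD50 to NBN shifted by -1.56 in SCC15 and -2.81 in SCC25, and that of ATR to CHEK1 by -1.11 and -1.02. The ratio of RAD51D to XRCC2 shifted by 1.51 and 0.60. The ratio of FANCD2 to FANCI moved least among the pairs without overlap, by 0.17 and 0.08. Groups overlapped in SCC15 for BRCA2 to PALB2, RAD51C to XRCC3 and BRIP1 to BRCA1.

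**Figure D2:**
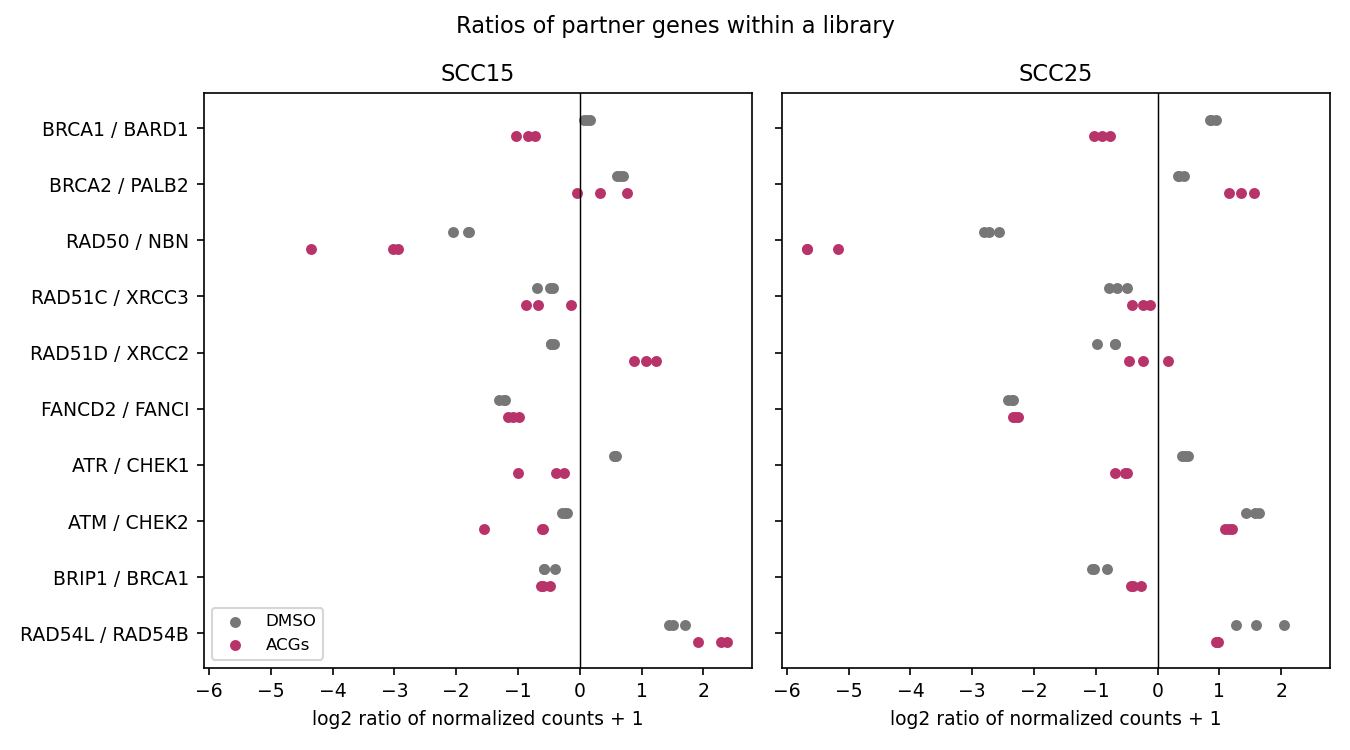
Log2 ratio of normalized counts (+ 1) of 10 pairs of partner genes within each library (x axis), grey for DMSO and magenta for ACGs, in SCC15 (left) and SCC25 (right). The counts are not divided by gene length. BRCA1 to BARD1 and ATR to CHEK1 are lower in all ACGs libraries than in all DMSO libraries of both lines.

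Of 51 other genes of the pathway tested in SCC15, 22 were lower (30.0% of all genes) and 13 higher (30.9%), with a median of -0.22. Of 51 tested in SCC25, 21 were lower (38.5% of all) and 18 higher (38.3%), with a median of -0.0039. Those past the threshold in both lines and beyond 1 on the log2 scale in both, with a mean of at least 100 normalized counts, were HELQ, a helicase, at -1.53 in SCC15 and -1.15 in SCC25, CLSPN, the adaptor between ATR and CHEK1, at -1.26 and -1.26, SWI5, a recombination cofactor, at 1.08 and 1.14, and BABAM1, of the BRCA1-A complex, at 1.34 and 1.02. Of 9 end joining genes tested, 4 were lower and 2 higher in SCC15 (30.0% and 30.9% of all genes) and 6 lower and 3 higher in SCC25 (38.5% and 38.3%), and PAXX rose in both lines, by 1.42 and 1.22.

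Most S phase genes also fell. Of 22 tested, 14 were lower and 2 higher in SCC15 (30.0% and 30.9% of all genes), with a median of -0.48, and 19 were lower and 0 higher in SCC25 (38.5% and 38.3%), with a median of -1.17. Their response was lower in SCC25 than in SCC15 for 15 of the 22 (26.1% of all) and higher for 2 (26.0%) by the test of the difference. UHRF1, FEN1 and PRIM1, which act in DNA replication and its maintenance methylation, had log2 fold changes of -1.63, -1.45 and -1.28 in SCC15 and of -1.47, -1.62 and -1.98 in SCC25. Whether the share of cells in S phase had a part in the repair genes' values was not tested.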

How the data were processed

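RNA-seq of SCC15 and SCC25 cells treated with ACGs or DMSO was analysed, with 3 libraries in each of 4 groups. Per the submitters' processing notes the tools were HISAT2 2.0.5 and featureCounts 1.5.0-p3 on GRCh38. The authors scaled the reads of each gene by a size factor of its library before they deposited them as a signal; each line has its own table and scaling, so tests were run within a table. Whether counting used strand, and how reads shared by overlapping genes were handled, is not given in the sources used here. Whole reads were recovered for 100% of values in each library (tolerance 0.05). The tables also hold group means and the fold changes and p-values of the authors' own comparison, which were not used.

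Genes whose mean normalized count reached 10 were kept, and log2(normalized count + 1) was tested two-sided in R 4.3.3 by limma 3.58.1 with its trended empirical Bayes step and Benjamini-Hochberg adjustment over all genes tested, and the difference between the lines as a contrast of the 4 group means. The script was tested on simulated data. Alternatives were other pseudocounts, filters and scalings, count tests of the recovered reads (DESeq2 1.42.0 and edgeR 4.0.16), a replicate block and leaving out each library. All 32 repair genes are named. Of other lists, genes past the threshold and beyond 1 (log2) in both lines with a mean of at least 100 are named, at most 12. MRE11 and RAD51B, named beside their complexes, and the cell type markers stand outside this rule. The members and lists were chosen with earlier results of these data known. H2AX is listed under its older symbol. Some items are not reported here.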

Additional observations from a re-analysis of the deposited data

Results flagged for a closer look

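The response to ACGs differed between the cell lines for 14 repair genes by the limma contrast of the 4 group means (adjusted p under 0.05 over the 14454 genes tested in both lines), of which 52.2% differed, so this number is no result about the repair genes. The response in SCC25 minus that in SCC15, on the log2 scale, was 1.23 for BRCA2, 1.12 for XRCC2, 1.08 for FANCF, 0.93 for BARD1, 0.80 for RAD54B, 0.78 for BRIP1, 0.77 for FANCM, 0.63 for NBN. It was -1.29 for FANCA, -1.09 for RBBP8, -0.63 for PARP1, -0.54 for FANCG, -0.51 for RAD54L, -0.38 for FANCL. BARD1 and FANCA passed the test in both lines with opposite signs. Without 1 library, the difference of RAD54B gave an adjusted p of 0.0523 (SCC15 DMSO replicate 2) and 0.0603 (SCC25 DMSO replicate 2), and that of FANCL gave 0.0566 to 0.0756 in 4 of 12 such fits (SCC15 DMSO replicate 2, SCC25 ACGs replicate 1, SCC25 DMSO replicates 2 and 3). Under equal library totals 17 repair genes differed, and the share of all genes is not given for that setting. FANCG (-0.25, adjusted p = 0.119), RAD54L (-0.22, adjusted p = 0.32) and FANCL (-0.09, adjusted p = 0.584) no longer passed there. BLM, RAD51C, RAD51D, RAD51AP1, ATM and CHEK2 passed there in addition. No explanation was tested for these differences.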

How the results depend on the processing

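Under equal library totals, 0 repair genes were higher in SCC15, in place of 3, and log2 fold changes changed sign in SCC15 for NBN (-0.14), RBBP8 (-0.36), RAD51AP1 (-0.29), FANCA (-0.10), FANCB (-0.49), FANCC (-0.44), FANCE (-0.38), FANCG (-0.011), CHEK1 (-0.28) and CHEK2 (-0.21) and in SCC25 for RAD51C (-0.04), FANCE (-0.03), FANCM (-0.18), ATM (-0.20) and CHEK1 (-0.08). This scaling moves all genes of a line together. Requiring an absolute log2 fold change above 1 as well left 7 lower and 0 higher in SCC15, 5 lower and 0 higher in SCC25, and 5 that differed between the lines. Shares of all genes are not given for this cut or for the replicate block below, so these counts are not set against a background. Leaving out 1 library gave 3 to 6 higher and 16 to 20 lower in SCC15, 4 to 5 higher and 17 to 18 lower in SCC25, and 12 to 18 that differed between the lines. The 6 came without ACGs replicate 3, the only such fit with shares of all genes given above. With the replicate block 17 were lower in SCC15 and 18 in SCC25, where FANCD2 lost its call in SCC15 and BRCA2 gained it in SCC25. The replicate numbers are no pairing in the labels, and deviations of same-numbered libraries correlated at -0.051 to 0.0078. The other pseudocounts, filters, TMM factors, edgeR and DESeq2 gave 3 higher and 18 lower in SCC15, 4 higher and 17 or 18 lower in SCC25, and 14 differing, with BRCA2 as the gene that crossed the threshold. The lowest counts limit precision for FANCF, RAD54B and RAD50.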
